A study of Mus musculus with 6 samples.

Results

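The genes described here are the olfactory receptor genes of chromosome 7 whose symbols run from Olfr543 to Olfr714, in RNA of small extracellular vesicles (sEV) released by cultured mouse neurons. Of 136 listed genes with a symbol in this range, the 133 that GENCODE M21 annotates as protein-coding are the members, and 3 pseudogenes were left out. They are 133 of 53379 gene identifiers in each deposited table. HypEV are vesicles of wild-type embryonic cortical neurons whose treatment is labelled OGD/R and whose condition the series text calls hypoxic. NorEV are vesicles of wild-type embryonic cortical neurons labelled control and called normoxic. Each group has 3 libraries. The label OGD/R is not spelled out, and how the vesicles were isolated is not given in the sources used here. No label says whether the libraries of a group are separate cultures. The p-values therefore reflect the variation among the 3 libraries of a group, which could be purely technical.

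Olfactory receptors are G protein-coupled receptors that bind odorants. In the nose, a mature olfactory sensory neuron expresses a single receptor allele, and the receptor signals through the G protein subunit encoded by Gnal, the adenylyl cyclase encoded by Adcy3 and the cyclic nucleotide-gated channel of which Cnga2 is a subunit. The large cluster on mouse chromosome 7 holds the class I receptors, the fish-like receptors, many of which respond to hydrophilic odorants such as carboxylic acids. Cortical neurons are not a known source of this family at large, so the question was what level and what detection such genes had in these libraries beside coding genes of the same length.

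All 133 members lie between position 102476579, the start of Olfr543, and position 107077802, the end of Olfr714, on chromosome 7 of GRCm38. They form 2 blocks with 115 and 18 members, 1306 kb apart. On the plus strand lie 65 members and on the minus strand 68. By the mouse receptor family numbers in RefSeq synonyms, 111 members belong to families up to 42, which are class I, 19 to higher families and 3 have no family number. The longest transcripts span 936 to 8565 bases with a median of 3083, and 15 members have a single exon. Just inside the numeric edge of the range, Olfr543 and Olfr714 had mean levels of 2.59 and 2.93 FPKM (fragments per kilobase of transcript, scaled to the fragments counted in the library) over the 6 libraries. Just outside it by number, Olfr541 and Olfr715 had 1.57 and 2.21 FPKM. Olfr541 is a neighbour by number only, as it starts at position 140697267. Some coding olfactory receptor genes with other numbers, such as Olfr78, lie between the members and are not among them.

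The receptors share a short conserved stretch at the inner end of the third membrane helix, where most have aspartate, arginine and tyrosine in a row. Each longest transcript was searched in its 3 forward frames for codons of methionine, alanine, any amino acid, aspartate, arginine, tyrosine or phenylalanine, then valine, leucine or isoleucine, then alanine. The search found a match in 72.9% of the members (97 of 133), in 62.4% of the other coding olfactory receptor genes and in 0.0338% of the remaining coding genes. It is shown for 3 of the most abundant members (Olfr564, Olfr593 and Olfr649) and the 2 members best known outside the nose (Olfr544 and Olfr558), with the aspartate, arginine and tyrosine codons in capitals (GRCm38, written 5′ to 3′ on the gene's strand).
Olfr564 (chr7:102803837-102803860, plus strand): atggcttttGATCGTTATgtggcc
Olfr593 (chr7:103212252-103212275, plus strand): atggcctttGACCGTTATgtagca
Olfr649 (chr7:104189825-104189848, minus strand): atggcatttGACCGCTATgtggcc
Olfr544 (chr7:102484732-102484755, minus strand): atggctctaGATCGCTATgtggct
Olfr558 (chr7:102709618-102709641, plus strand): atggcctttGACCGCTATgtggcc

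Near-identical genes matter for these values, because a read that matches 2 genes equally well may be counted on either or on none. Of the members, 28 had a copy with at least 90% identity over at least 80% of the shorter transcript among the olfactory receptor genes. The most abundant member, Olfr564, and the polymorphic pseudogene Olfr562-ps1 differ at 60 of 951 aligned bases (93.7% identity). The stretch of 150 aligned bases with the most differences, 33 in number, is shown with the differing bases in capitals.
Olfr564 (chr7:102803886-102804035, plus strand): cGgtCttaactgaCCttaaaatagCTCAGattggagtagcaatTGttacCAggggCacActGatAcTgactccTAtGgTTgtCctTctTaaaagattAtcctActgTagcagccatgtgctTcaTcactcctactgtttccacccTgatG
Olfr562-ps1 (chr7:102781884-102782033, plus strand): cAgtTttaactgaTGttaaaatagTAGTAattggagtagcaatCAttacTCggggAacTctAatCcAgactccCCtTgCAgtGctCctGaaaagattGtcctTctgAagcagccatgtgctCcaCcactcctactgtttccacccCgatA

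Olfr596 and Olfr603 are the closest pair of members, with 5 of 1021 aligned bases different (99.5% identity). In the stretch with the most differences, 2 of 150 bases differ, again in capitals.
Olfr596 (chr7:103310053-103310202, plus strand): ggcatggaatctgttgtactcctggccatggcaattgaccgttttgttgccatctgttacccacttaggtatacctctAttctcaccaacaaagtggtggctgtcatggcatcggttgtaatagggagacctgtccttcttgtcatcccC
Olfr603 (chr7:103383521-103383670, minus strand): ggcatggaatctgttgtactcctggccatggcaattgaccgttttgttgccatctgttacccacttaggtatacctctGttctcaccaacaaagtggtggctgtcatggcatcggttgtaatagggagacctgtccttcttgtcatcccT
Olfr611 and Olfr612, a pair singled out after their values were seen, differ at 46 of 2220 aligned bases (97.9% identity), and at 14 of the 150 bases of the stretch chosen in the same way.
Olfr611 (chr7:103517753-103517902, minus strand): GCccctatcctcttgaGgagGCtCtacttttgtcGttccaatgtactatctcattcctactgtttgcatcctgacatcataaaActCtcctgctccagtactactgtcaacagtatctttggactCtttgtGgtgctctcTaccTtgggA
Olfr612 (chr7:103538603-103538752, minus strand): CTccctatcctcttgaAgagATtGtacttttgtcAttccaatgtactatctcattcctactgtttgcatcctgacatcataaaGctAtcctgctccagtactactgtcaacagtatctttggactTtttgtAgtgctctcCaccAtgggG

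Reads were recovered from the steps between FPKM values, and all values of the 133 members were whole multiples of 1 read. HypEV 1, 2 and 3 held 2141611, 1445674 and 1320916 reads counted on genes. NorEV 1, 2 and 3 held 1092724, 1413374 and 1494499. A single read on a member of median length was worth 0.151 to 0.246 FPKM in HypEV and 0.217 to 0.297 FPKM in NorEV. Near-identical short entries of the Gm23935 family took 49.6%, 1.97% and 24.5% of the reads in HypEV 1, 2 and 3, against 4.34%, 0.561% and 0.303% in NorEV 1, 2 and 3. HypEV 1 and HypEV 3 stand apart in this. FPKM divide by the library's total, so a gene with the same share of the other reads has lower FPKM where the family's share is high. Single genes can still go the other way.

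Every member had at least 1 read in at least 1 library. The members took 1618, 2534 and 1542 reads in HypEV 1, 2 and 3 and 1984, 3282 and 2718 reads in NorEV 1, 2 and 3. As a share of the library this was 0.0756% (95% Wilson interval 0.0720 to 0.0793), 0.175% (0.169 to 0.182) and 0.117% (0.111 to 0.123) in HypEV. In NorEV it was 0.182% (0.174 to 0.190), 0.232% (0.224 to 0.240) and 0.182% (0.175 to 0.189). The intervals cover counting error only, because PCR copies are not independent molecules. The members hold 0.395% of the summed longest-transcript length of the listed genes, so in every library their share of reads was below their share of length. In vesicle RNA, fewer vesicles with a transcript and less of it per vesicle cannot be told apart.

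On totals that omit the Gm23935 family, the members' share was 0.150%, 0.179% and 0.155% in HypEV 1, 2 and 3, against 0.190%, 0.234% and 0.182% in NorEV 1, 2 and 3. HypEV averaged 0.161% ± 0.0155 and NorEV 0.202% ± 0.0276 (SD, n = 3 each) on that total. The 3 HypEV libraries were all below the 3 NorEV libraries, by a narrow margin between HypEV 2 and NorEV 3. The shares are sums over all members, and Olfr564 weighs on them. It took 114 of the 2534 member reads in HypEV 2 and 179 of the 2718 in NorEV 3. Whether the order of these libraries holds without Olfr564 was not tested, so it cannot be read as a trait of the members at large. With the family in the totals, HypEV averaged 0.123% ± 0.0501 and NorEV 0.199% ± 0.0292 (SD, n = 3 each).

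Most members were detected in most libraries. At least 1 read fell on 106, 124 and 117 of 133 members in HypEV 1, 2 and 3, and on 118, 129 and 129 in NorEV 1, 2 and 3. That was 87.0% ± 6.82 of the members in HypEV and 94.2% ± 4.78 in NorEV (SD, n = 3 each), and the 2 groups overlap. Across libraries, 92 members (69.2%) were above 0 in all 6, 19 in 5, 13 in 4, 7 in 3, Olfr622 in 2 and Olfr611 in 1. Of 1000 other coding olfactory receptor genes, 61.5% were above 0 in all 6 libraries. Of 20394 coding genes that are no olfactory, vomeronasal or trace amine receptor, 84.1% were. A member at 0 has a limit of 3 reads, which is 0.454 to 0.891 FPKM at the median member length.

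The levels were low but well above that of a single read. The median member had 1.29, 3.71 and 2.18 FPKM in HypEV 1, 2 and 3 and 3.06, 3.88 and 3.76 FPKM in NorEV 1, 2 and 3, from a median of 9, 16 and 9 reads in HypEV and 9, 15 and 17 in NorEV. The median over HypEV libraries was 2.39 ± 1.22 FPKM and over NorEV libraries 3.57 ± 0.442 FPKM (SD, n = 3 each). HypEV 1 and HypEV 3 were below all NorEV libraries and HypEV 2 lay among them. Rescaled to totals without the Gm23935 family, the medians averaged 3.08 ± 0.634 FPKM in HypEV and 3.62 ± 0.373 FPKM in NorEV (SD, n = 3 each).

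Coding genes of the same length had higher levels. Each member was set beside all of the other 20394 coding genes within 5% of its longest-transcript length, a median of 1016 genes per member. The median of the members was 0.371 ± 0.0467 times that of their length-matched genes in HypEV and 0.440 ± 0.0446 times in NorEV (SD, n = 3 each). The members were lower in 6 of 6 libraries, with matched medians of 4.04, 9.03 and 5.72 FPKM in HypEV and 7.41, 7.88 and 9.04 FPKM in NorEV. This ratio is taken within a library, so its total cancels. It was 0.319, 0.411 and 0.381 in HypEV 1, 2 and 3 and 0.413, 0.492 and 0.416 in NorEV 1, 2 and 3. All 3 HypEV ratios were below all 3 NorEV ratios, with 0.411 in HypEV 2 and 0.413 in NorEV 1 as neighbours. The coding sequence of an olfactory receptor usually lies within a single exon. Beside coding genes with 1 exon the ratio was 0.506 ± 0.0945 in HypEV and 0.618 ± 0.0733 in NorEV (SD, n = 3 each), at 5 to 100 matched genes per member. With that pool the groups overlapped, as HypEV 3 at 0.596 was above NorEV 1 at 0.562 and NorEV 3 at 0.590.

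Detection was set beside that of the same length-matched genes. The share of members with a read minus that of their length-matched genes was -11.6, -2.11 and -4.64 percentage points in HypEV 1, 2 and 3, and -4.27, 1.33 and 0.809 points in NorEV 1, 2 and 3. The means were -6.12 ± 4.92 points in HypEV and -0.71 ± 3.09 points in NorEV (SD, n = 3 each). All 3 HypEV libraries had a lower share of members detected than of matched genes, as did NorEV 1, while NorEV 2 and NorEV 3 had a slightly higher one. Beside coding genes with 1 exon the differences were -4.45, 1.83 and 2.11 points in HypEV 1, 2 and 3 and 1.31, 5.12 and 3.63 points in NorEV 1, 2 and 3, so the direction turned in HypEV 2, HypEV 3 and NorEV 1.

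The difference varied with transcript length. Of the 44 members up to 2266 bases, 61.4%, 84.1% and 70.5% had a read in HypEV 1, 2 and 3, against 79.3%, 88.4% and 82.5% of their matched genes. In NorEV 1, 2 and 3 it was 79.5%, 95.5% and 95.5% of these members, against 82.8%, 89.2% and 90.5% of their matched genes. The short members were thus below their matched genes in all HypEV libraries and in NorEV 1, and above them in NorEV 2 and NorEV 3. Of the 44 members from 2301 to 3613 bases, 81.8%, 95.5% and 95.5% had a read in HypEV, against 96.2%, 98.4% and 96.7% of matched genes. In NorEV it was 90.9%, 95.5% and 95.5% of these members, against 97.2%, 98.6% and 98.7% of matched genes, so these members of middle length were lower in 6 of 6 libraries. Of the 45 members from 3665 bases up, 43, 45 and 44 had a read in HypEV and 43, 45 and 45 in NorEV. At this length 98.2 to 99.1% of matched genes had a read in HypEV and 98.8 to 99.3% in NorEV.

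**Figure D1:**
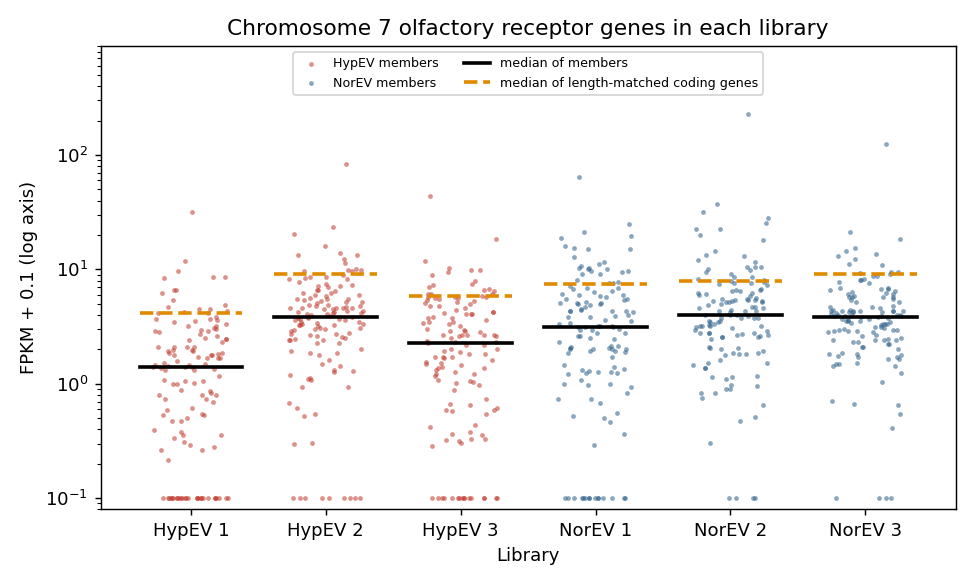
FPKM + 0.1 on a log axis of the 133 members (points) in each of 3 HypEV and 3 NorEV libraries, with the median of the members (solid line) and of their length-matched coding genes (dashed line). Points at the bottom are members at 0. The solid line lies below the dashed one in 6 of 6 libraries, and the highest point in each library is Olfr564.

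The members differed widely in level. Their mean over the 6 libraries ran from 0.0663 FPKM for Olfr611 to 96.4 FPKM for Olfr564, with quartiles of 1.91, 3.04 and 4.89 FPKM, and 9 members were above 10 FPKM. In no library were 82 members above the median of their own length-matched genes. In all 6 libraries 5 were, namely Olfr564, Olfr593, Olfr596, Olfr603 and Olfr649. The order of the members was shared in part between libraries. Over the 133 members, Spearman's rho between 2 libraries was 0.460 to 0.675 over the 15 pairs, against 0.666 to 0.847 over the other coding genes and 0.485 to 0.726 over the other olfactory receptor genes. These correlations are descriptions across genes, which are not independent replicates, and the members have few reads and share each library's depth.

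Olfr564 was the most abundant member in each of the 6 libraries. This gene (ENSMUSG00000048469) has a single exon of 951 bases at chr7:102803480-102804430 on the plus strand and belongs to receptor family 14, within class I. It had 31.9, 82.9 and 43.8 FPKM in HypEV 1, 2 and 3 and 64.5, 229 and 126 FPKM in NorEV 1, 2 and 3, from 65, 114 and 55 reads in HypEV and 67, 308 and 179 reads in NorEV. NorEV 2 and NorEV 3 were above all HypEV libraries, while NorEV 1 lay among them. Olfr564 was at 20.1 to 59.1 times the median member of its library, and its mean was 5.56 times that of the next member. It took 5.76% of all reads on the members.

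Its near-identical relative Olfr562-ps1, at chr7:102781478-102782428 on the same strand and no member, had 2.95, 15.3 and 7.96 FPKM in HypEV 1, 2 and 3 and 9.62, 76.6 and 37.3 FPKM in NorEV 1, 2 and 3. The pair was highest in the same library, NorEV 2. The ratio of Olfr564 to Olfr562-ps1 was 10.8, 5.43 and 5.50 in HypEV 1, 2 and 3 and 6.70, 2.99 and 3.38 in NorEV 1, 2 and 3, so it was not fixed, although the counts behind the highest ratio are small, with 6 reads on Olfr562-ps1. How the authors' counting shared reads between such copies is not given in the sources used here, and both values are uncertain for that reason.

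The next members were far lower. Olfr593, a single-exon gene of family 24, had 4.75, 9.84 and 18.5 FPKM in HypEV 1, 2 and 3 and 25.1, 31.6 and 14.3 FPKM in NorEV 1, 2 and 3. Olfr596 had 8.26, 11.2 and 9.82 FPKM in HypEV and 14.8, 36.9 and 21.1 FPKM in NorEV. The groups overlap for Olfr593 and do not for Olfr596, which was lower in all HypEV libraries. Its close copy Olfr603 had 4.12, 20.3 and 6.67 FPKM in HypEV and 8.96, 10.4 and 13.1 FPKM in NorEV, with overlap. Olfr649 has no near-identical copy. It had 8.45, 23.5 and 9.31 FPKM in HypEV and 9.93, 7.68 and 18.4 FPKM in NorEV, with no order of the groups. Of the 10 highest members, 7 have a near-identical copy.

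The other 5 of the 10 highest members had means of 9.47 to 12.1 FPKM. Olfr549 had 1.48, 13.2 and 7.21 FPKM in HypEV 1, 2 and 3 and 10.2, 25.4 and 15.2 FPKM in NorEV 1, 2 and 3. Olfr582 had 3.76, 8.46 and 10.2 FPKM in HypEV and 12.7, 22.5 and 10.8 FPKM in NorEV, all HypEV libraries being below all NorEV libraries. Olfr686 had 2.82, 9.67 and 6.87 FPKM in HypEV and 14.9, 10.4 and 12.1 FPKM in NorEV, again without overlap. Olfr672 overlapped, with 3.45, 15.8 and 5.59 FPKM in HypEV and 11.1, 18.04 and 8.08 FPKM in NorEV. Olfr638 was at 0 in HypEV 3 and had 11.7 and 13.7 FPKM in HypEV 1 and 2, against 6.32, 28.1 and 11.0 FPKM in NorEV 1, 2 and 3, and it overlaps another member on the opposite strand.

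**Figure D2:**
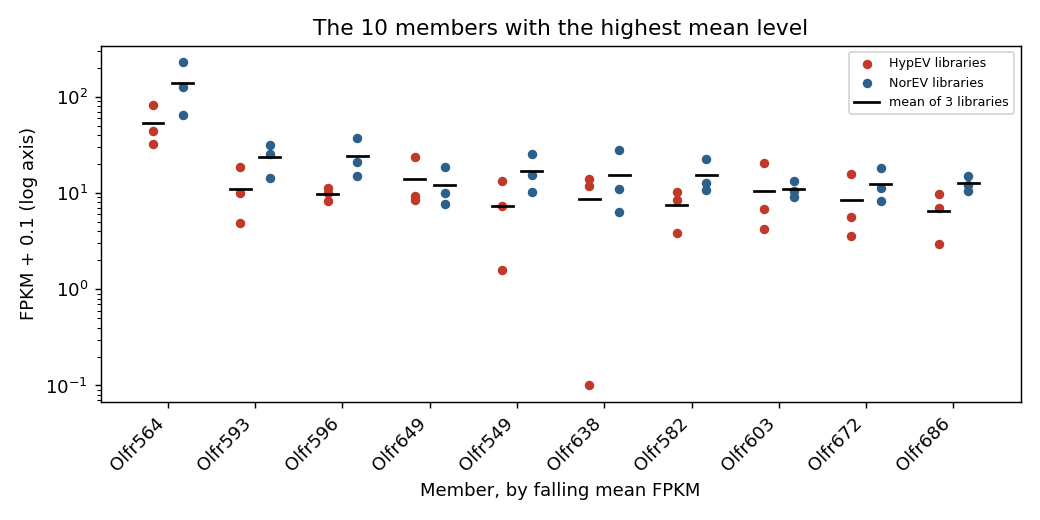
FPKM + 0.1 on a log axis of the 10 members with the highest mean, for 3 HypEV libraries (red) and 3 NorEV libraries (blue), with the mean of each group (bar). Olfr564 stands above the other members in both groups, and Olfr638 has a HypEV library at 0.

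Some members are known outside the nose. Olfr544 is a receptor for azelaic acid studied in mouse liver and fat, and Olfr558 is the mouse ortholog of human OR51E1, a receptor of short-chain fatty acids. Olfr544 had 4.43, 13.3 and 4.17 FPKM in HypEV 1, 2 and 3 and 21.3, 5.41 and 7.57 FPKM in NorEV 1, 2 and 3. Olfr558 had 3.07, 5.91 and 2.24 FPKM in HypEV and 6.62, 5.12 and 4.18 FPKM in NorEV. The groups overlap for both. Olfr544 was among the higher members and Olfr558 near the upper quartile of 4.89 FPKM. Olfr558 overlaps another gene on the opposite strand, and whether the library kit keeps the strand is not given in the sources used here.

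Near-identical members could differ strongly. Olfr611 had a single read in NorEV 1 and was at 0 in the other 5 libraries. Olfr612 had 1, 16 and 17 reads in HypEV 1, 2 and 3 and 26, 50 and 19 reads in NorEV 1, 2 and 3, or 0.189, 4.48 and 5.20 FPKM in HypEV and 9.62, 14.3 and 5.14 FPKM in NorEV. The members with a near-identical copy had a median of 3.98 FPKM and those without 2.96 FPKM (medians of the mean over 6 libraries). Olfr560 shares 1852 exon bases on its strand with Olfr78, a receptor gene outside the numbered range, and 4 more members share exon bases on their strand with another gene, so their values are uncertain too.

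Level varied little with class, place or strand. The median of the mean FPKM was 3.19 for the 111 class I members and 2.71 for the 19 members of higher families. It was 3.15 in the larger block and 2.77 in the smaller one, and 2.93 on the plus strand and 3.06 on the minus strand. The 15 members with a single exon had a median of 1.76 FPKM, and 6 of the 15 were above 0 in all 6 libraries. The rank correlation of the mean FPKM with transcript length was -0.08, with GC content 0.19 and with the number of exons 0.02 over the 133 members, against 0.14, 0.09 and 0.35 over the other coding genes. The members' GC content was 34.3 to 50.3% with a median of 40.2%, against a median of 49.4% in the other coding genes.

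**Figure D3:**
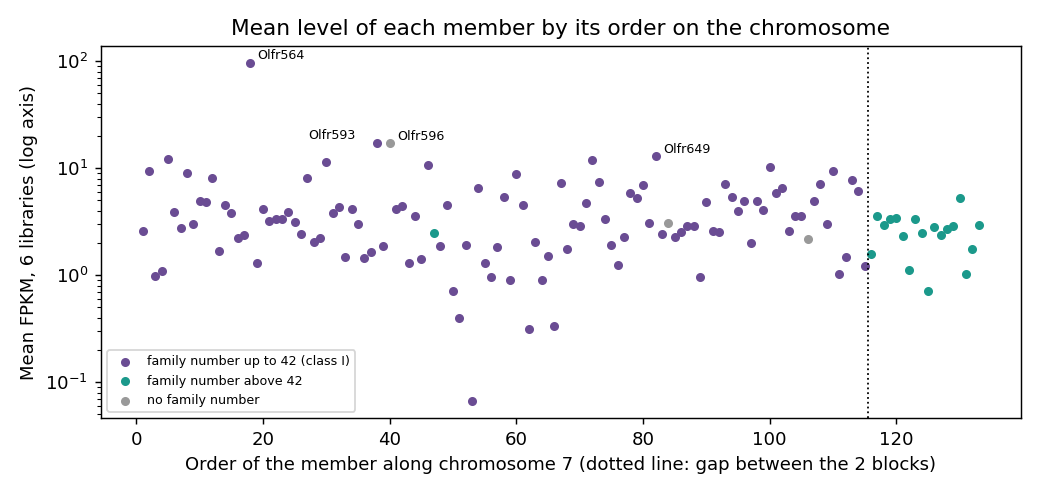
Mean FPKM over the 6 libraries, on a log axis, of each of the 133 members by order along the chromosome, coloured by receptor family class. Members of the smaller block, right of the dotted line, all lie below 10 FPKM, and Olfr564 stands alone at 96.4 FPKM.

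Other gene groups give these levels a scale. The median of the mean FPKM was 3.04 over the members, 2.25 over the other 1000 olfactory receptor genes and 7.17 over the other 20394 coding genes. Coding genes that lie between the members, 48 in number and including the Trim genes and the beta-globin genes, had a median of 5.93 FPKM. A list of 24 genes of olfactory sensory neurons and olfactory transduction had a median of 7.60 FPKM and was above 0 in all 6 libraries for 24 of 24. Lists of 13 pan-neuronal genes and 9 cortical neuron genes had medians of 7.42 and 5.18 FPKM, also with all genes above 0 in every library. Markers of astrocytes (5 genes) had 14.9 FPKM, of microglia 6.79 FPKM, of oligodendrocytes 4.26 FPKM and housekeeping genes 14.02 FPKM. Presence in every library marks no cell type here, since 84.1% of the other coding genes were above 0 in all 6 too. The median of the cortical neuron list was below those of the olfactory list and of the other coding genes. Whether the genes of a list are specific to their cell type was not tested.

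Single genes show the same range. Omp, the marker of mature olfactory sensory neurons, had 2.83, 11.3 and 11.3 FPKM in HypEV 1, 2 and 3 and 13.2, 7.59 and 6.87 FPKM in NorEV 1, 2 and 3. Cnga2 had 3.20, 2.71 and 4.20 FPKM in HypEV and 5.08, 7.16 and 5.90 FPKM in NorEV. Neurod6, a transcription factor of cortical excitatory neurons, had 2.17, 5.15 and 3.87 FPKM in HypEV and 0.85, 1.97 and 4.36 FPKM in NorEV. Slc17a7, the vesicular glutamate transporter of such neurons, had 13.5, 18.6 and 25.1 FPKM in HypEV and 19.0, 17.7 and 14.6 FPKM in NorEV. The housekeeping gene Actb had 1.22, 11.2 and 8.28 FPKM in HypEV and 6.67, 7.74 and 5.92 FPKM in NorEV, below Olfr564 in each library. Of the adjacent adult globin genes, Hbb-bs had 18.6, 1.10 and 4.82 FPKM in HypEV and 0, 13.5 and 8.52 FPKM in NorEV.

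**Figure D4:**
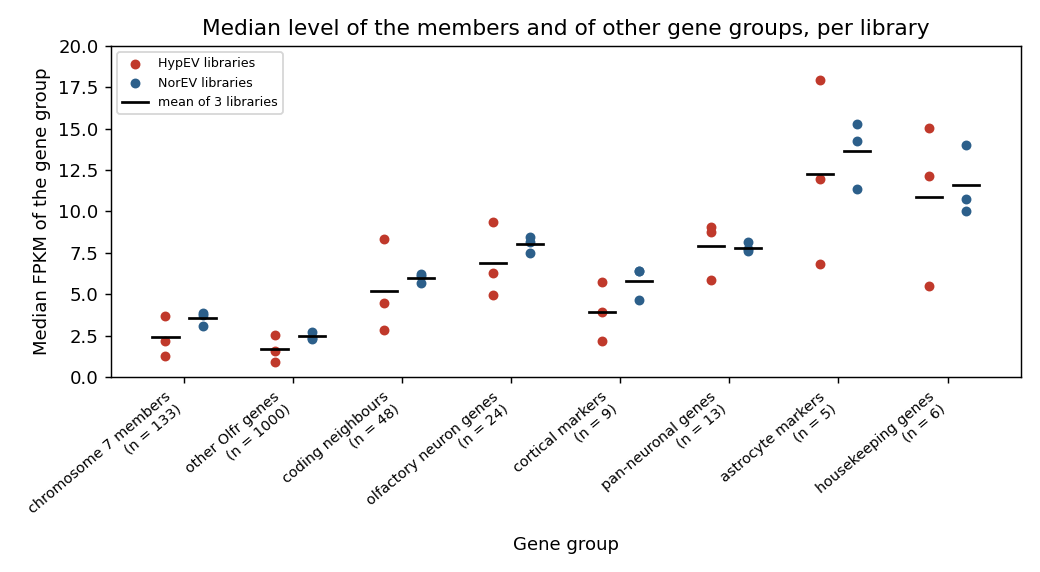
Median FPKM of 8 gene groups in each of 3 HypEV libraries (red) and 3 NorEV libraries (blue), with the mean of each group of libraries (bar). The members lie above the other olfactory receptor genes and below the coding neighbours and the neuronal, astrocyte and housekeeping lists in both groups.

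HypEV and NorEV were compared with limma on log2(FPKM + 1) over the 44125 genes that averaged 1 FPKM or more, with Benjamini-Hochberg adjustment over these genes and a threshold of 0.05. Of the 133 members 122 passed this filter, and 0 members passed the test, against 0.0159% of all tested genes. At an unadjusted limma p under 0.05, 7 of 122 members were lower in HypEV and 0 higher. Of all tested genes, 6.13% were lower and 0.635% higher. With limma-voom on the recovered reads 1 member passed, Olfr589, against 0.546% of all genes tested in that way. At an unadjusted limma-voom p under 0.05, 26 of 122 members were lower in HypEV and 0 higher. Of all genes in that fit, 11.3% were lower and 0.368% higher. On totals that omit the Gm23935 family, limma-voom passed 0 members, against 0.142% of all genes in that fit. There, 12 of 122 members were lower and 1 higher at an unadjusted p under 0.05, against 4.9% of all genes lower and 2.23% higher. In both limma-voom fits the share of members that were lower was above that of all genes. The other olfactory receptor genes were not counted in these fits.

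Most members had lower FPKM in HypEV, as did most genes. The log2 fold change of HypEV over NorEV, on the log2(FPKM + 1) scale, was below 0 in 102 of the 122 tested members and above 0 in 20, against 74.9% of all tested genes below 0. Its median was -0.49 over the members, -0.43 over the other olfactory receptor genes and -0.44 over all tested genes. After each library was centred on the median of all tested genes, the median of the members was -0.042, with 67 lower and 55 higher, and after quantile normalization it was 0.077, with 57 lower and 65 higher. In 19 tested members all HypEV libraries were below all NorEV libraries, against 10.8% of all tested genes, and in 0 they were all above, against 1.1%. This was 15.6% of the tested members and 16.4% of the tested other olfactory receptor genes. Among these members, Olfr589, Olfr616, Olfr628, Olfr656, Olfr688 and Olfr693 averaged under 1 FPKM in HypEV. They passed the filter of 1 FPKM through NorEV alone, which favours this direction. How many of all tested genes did so was not counted. The Gm23935 family took a larger share of the reads in HypEV 1 and HypEV 3 than in any NorEV library. In HypEV 2 its share of 1.97% was below the 4.34% of NorEV 1. Whether this share bears on the lower FPKM in HypEV was not tested. In limma-voom on the recovered reads, which works on log2 reads per library total and not on log2(FPKM + 1), the median log2 fold change was -0.86 over the members and -0.61 over all genes in that fit. On totals that omit the family, the limma-voom medians were -0.33 over the members and -0.12 over all genes. In the limma comparison the members' median was -0.31 without HypEV 1 and -0.85 without HypEV 2, beside medians of -0.20 and -0.73 over all tested genes.

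**Figure D5:**
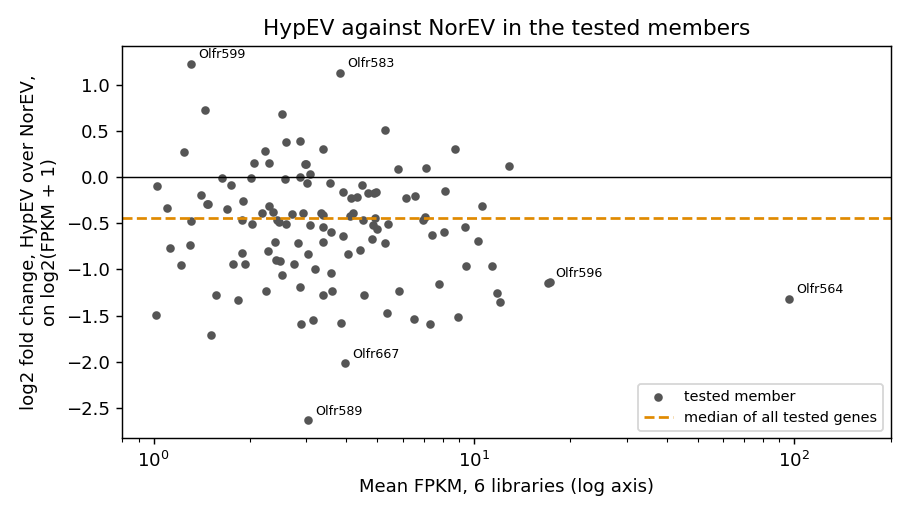
log2 fold change of HypEV over NorEV on the log2(FPKM + 1) scale against mean FPKM over 6 libraries (log axis) for the 122 tested members (points), with the median of all tested genes (dashed line). The members scatter around that line at -0.44, and Olfr589 lies lowest at -2.64.

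Olfr589, of class I family 32, had the smallest p among the members. It was at 0 in all 3 HypEV libraries and had 1.89, 7.32 and 9.005 FPKM in NorEV 1, 2 and 3, from 2, 10 and 13 reads. A limit of 3 reads per library averaged 1.98 FPKM in HypEV. The NorEV mean of 6.07 ± 3.72 FPKM (SD, n = 3) was 3.06 times that limit. This is no firm lower bound, because NorEV 1, at 1.89 FPKM, itself lay below the limit. Olfr589 passed the filter of 1 FPKM through NorEV alone. The log2 fold change was -2.64 ± 0.74 (SE), with an adjusted p of 0.601 in limma and 0.0352 in limma-voom on the recovered reads. On totals that omit the Gm23935 family, its adjusted p in limma-voom was 0.120. Another 3 members were at 0 in all HypEV libraries, namely Olfr622, Olfr688 and Olfr611, with NorEV means of 0.626, 2.03 and 0.133 FPKM. The same 3-read limit in HypEV was 0.863, 1.98 and 0.833 FPKM for them. The NorEV means of Olfr622 and Olfr611 lay below it and that of Olfr688 just above it. Their values of 0 thus show no clear difference between the groups. The share of all genes at 0 in all HypEV libraries was not counted.

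The next lowest p belonged to Olfr667, with 0.520, 2.57 and 0.281 FPKM in HypEV 1, 2 and 3 and 5.77, 8.40 and 6.21 FPKM in NorEV 1, 2 and 3. All HypEV libraries were below all NorEV libraries, and the log2 fold change of -2.02 ± 0.64 (SE) had an adjusted p of 0.661 in limma. Olfr552 had 1.998, 5.76 and 4.86 FPKM in HypEV and 19.4, 13.1 and 8.59 FPKM in NorEV. Olfr628 had 0, 0.445 and 0 FPKM in HypEV, from 1 read, and 2.36, 4.56 and 1.72 FPKM in NorEV. It passed the filter of 1 FPKM through NorEV alone. The groups overlapped in neither Olfr552 nor Olfr628. Both missed the limma threshold, as did Olfr596, with adjusted p of 0.712 for Olfr552 and 0.720 for Olfr628 and for Olfr596. The most abundant member, Olfr564, averaged 52.9 ± 26.7 FPKM in HypEV and 139.9 ± 83.2 FPKM in NorEV (SD, n = 3 each), with a log2 fold change of -1.32 ± 0.58 (SE) and an adjusted limma p of 0.720. Its 2 groups overlap.

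No member was higher in all HypEV libraries. The smallest p in that direction was that of Olfr599, with 0.642, 3.49 and 2.77 FPKM in HypEV 1, 2 and 3 and 0, 0.648 and 0.307 FPKM in NorEV 1, 2 and 3. HypEV 2 and 3 were above all NorEV libraries, and HypEV 1 was just below NorEV 2. The log2 fold change was 1.23 ± 0.77 (SE) with an adjusted limma p of 0.754. Olfr583 had 2.43, 10.1 and 3.94 FPKM in HypEV and 0, 3.69 and 2.79 FPKM in NorEV. Olfr591 had 2.72, 1.01 and 2.52 FPKM in HypEV and 1.14, 0.737 and 0.557 FPKM in NorEV, and Olfr654 had 1.68, 3.16 and 5.44 FPKM in HypEV and 1.20, 1.85 and 1.75 FPKM in NorEV. Olfr710 had 3.20, 6.33 and 6.35 FPKM in HypEV and 0, 8.09 and 7.65 FPKM in NorEV, so its positive log2 fold change of 0.51 rests on NorEV 1, and it was -0.54 without that library. The adjusted limma p of these 4 ran from 0.778 to 0.887.

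The genes of olfactory signalling gave the same picture. Of the 24 genes of olfactory sensory neurons and transduction, all were tested and 0 passed in limma, with 22 below 0 and 2 above 0 and a median log2 fold change of -0.41, close to that of all tested genes. Gnal had 0.25, 4.31 and 1.75 FPKM in HypEV 1, 2 and 3 and 1.63, 4.28 and 5.60 FPKM in NorEV 1, 2 and 3. Cnga4, a channel subunit gene that lies among the members, had 5.83, 11.97 and 4.88 FPKM in HypEV and 20.3, 7.41 and 9.97 FPKM in NorEV. The groups overlap for both. Of the 48 coding neighbours 42 were tested and 0 passed, with 33 below 0 and 9 above 0 and a median of -0.26. Of the 13 pan-neuronal and 9 cortical neuron genes 0 passed as well, with 9 and 5 below 0 and medians of -0.22 and -0.17. The astrocyte, microglia, oligodendrocyte and housekeeping lists had 0 genes past the limma threshold too.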

How the data were processed

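Trizol was used for RNA extraction and a long-RNA kit of Epibiotek for the libraries, per the labels' protocols. The authors deposited 1 FPKM table per library, counted with HTSeq per the file names. The sources used here do not give the aligner, build, annotation or strand setting. These values divide by gene length and library total. A gene family that fills a library thus lowers the value of any gene whose share of the other reads is unchanged.

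With GENCODE M21 (GRCm38) lengths of longest transcripts, 96.0% of non-zero values fell within 0.01 of a whole number of reads. Genes were compared with limma 3.58.1 in R 4.3.3 (log2(FPKM + 1), mean of at least 1 FPKM, eBayes with trend, two-sided, no covariates, 3 against 3 libraries, adjusted over all tested genes), with limma-voom on recovered reads as an alternative. The limma fit was tested on simulated data in which genes were raised in HypEV by known folds. The spread between simulated libraries was assumed and not estimated from these libraries, and no gene was lowered. At an adjusted p under 0.05 it called 0 of 50 genes at 2-fold and 0 of 50 at 4-fold. At 8-fold it called 11 of 50 and at 16-fold 33 of 50. It also called 25 of 40892 unchanged genes, a larger share of all its calls than the threshold of 0.05 aims at. These rates need not hold for the members, most of which were lower in HypEV. A member that was not called may still differ between the groups. Length matching, copies (blastn 2.17.0) and overlaps (bedtools 2.31.1) used scipy 1.17.1, numpy 2.4.6 and pandas 2.3.3 under Python 3.11.15, and figures matplotlib 3.10.9. All 133 members matched a RefSeq symbol, which gave family numbers. Sequences are from the GENCODE M21 transcripts.

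The members and lists were chosen with earlier results of these data known. Named members are the 10 highest by mean FPKM, the 5 with the smallest p in each direction, and Olfr544 and Olfr558. Pairs of copies and members at 0 in HypEV were named after their values were seen. Alternatives tried were other pseudocounts, filters, scalings, matching pools and detection limits, a replicate block and leaving out each library.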

Additional observations from a re-analysis of the deposited data

How the results depend on the processing

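Depth limits these results: a median member had 9 to 17 reads per library, and the spread between 3 libraries was wide. With 1 FPKM in place of 1 read as the detection limit, a mean of 93 members in HypEV and 115 in NorEV were detected. Without each library in turn, the mean number with at least 1 read was 111.5 to 120.5 in HypEV and 123.5 to 129 in NorEV. Beside 1-exon coding genes, the detection difference was -0.17 points in HypEV and 3.35 in NorEV, against -8.13 to -3.38 in HypEV and -1.73 to 1.07 in NorEV when single libraries were left out of the main comparison. The ratio of levels was 0.506 in HypEV and 0.618 in NorEV beside 1-exon genes, and 0.418 in HypEV and 0.542 in NorEV from means in place of medians. Leaving out single libraries gave 0.350 to 0.396 in HypEV and 0.415 to 0.454 in NorEV. In all of these the ratio stayed under 1.

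In the group comparison, limma-voom on recovered reads called 1 member, Olfr589 (log2 fold change -4.18, adjusted p 0.0352), and the other alternatives called 0. The median log2 fold change of the members was -0.042 after median centring and 0.077 after quantile normalization. By construction, both scalings take out a shift common to all genes. It ran from -0.85 to -0.31 when single libraries were left out, being lowest without HypEV 2 and highest without HypEV 1. For Olfr710 it ran from -0.54 without NorEV replicate 1 (adjusted limma p 0.775) to 1.05 without NorEV replicate 2. Deviations of same-numbered libraries from their group means correlated at 0.0446, 0.102 and -0.0582. The NorEV library that correlated best was the same-numbered one for HypEV 1 and HypEV 2, but not for HypEV 3. Deviations from the mean of so few libraries depend on each other. These values therefore cannot tell whether the replicate numbers pair the libraries. With the replicate block, 0 members were called and their median log2 fold change was -0.49.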
